A study of Mus musculus with 4 samples.

Results

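The cells described here are bone marrow cells that carried transcripts of Pf4, the platelet factor 4 chemokine stored in platelet granules, together with transcripts of Itga2b, the integrin alpha chain (CD41) of the fibrinogen receptor. A cell was taken when it held at least 2 unique molecular identifiers (UMIs, each marking 1 captured transcript) of Pf4, at least 1 of Itga2b and at most 4 of the basophil genes Mcpt8 and Prss34 together. Of 39167 cells that passed the quality filters, 98 met this rule. They came from bone marrow mononuclear cells of C57BL/6 mice, collected over Ficoll from femur and tibia and profiled from the transcripts' 5′ ends, with 1 library per mouse and 1 mouse of each genotype in each of 2 experiments. TLR9-/- mice carry disrupted alleles of Tlr9, the endosomal receptor for unmethylated CpG DNA, and WT mice were their controls. Neither genotype received any treatment, the genotypes were kept in separate cages, and the ages of these mice are not given in the sources used here, so that cage and genotype cannot be told apart. TLR9-/- 1 and TLR9-/- 2 gave 40 and 29 of the cells, and WT 1 and WT 2 gave 17 and 12.

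Megakaryocytes arise in the marrow from stem cells and from progenitors that also form red cells, and they shed platelets into the blood vessels through long extensions called proplatelets. The hormone thrombopoietin drives their growth, and the transcription factors Gata1, Fli1, Runx1, Nfe2 and Gfi1b control successive steps of their maturation. A maturing cell first loads the alpha granules with cargo such as Pf4, Ppbp and von Willebrand factor (Vwf), places the adhesion receptors Gp1ba, Gp1bb, Gp5 and Gp9 on its surface and later builds the tubulin and actin scaffold of proplatelets.

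The promoters of Pf4, one of the genes of the rule, and of other genes of the platelet lineage are of interest because GATA factors and ETS factors such as Fli1 are known to act there. The 250 bases before the start of Pf4, Gp9, Gp5 and Clec1b, the podoplanin receptor of platelets, are shown from RefSeq's annotation of GRCm38.p6, 5′ to 3′ on the strand of the gene. Capitals mark matches, on either strand, to a GATA motif (spelled AGATAA or, with the last base changed, AGATAG, and likewise TGATAA or, with the last base changed, TGATAG) and to an ETS motif (spelled AGGAAG or, with the first base changed, CGGAAG), and no matches overlapped in these windows.
Pf4, chr5:90772185-90772434, plus strand: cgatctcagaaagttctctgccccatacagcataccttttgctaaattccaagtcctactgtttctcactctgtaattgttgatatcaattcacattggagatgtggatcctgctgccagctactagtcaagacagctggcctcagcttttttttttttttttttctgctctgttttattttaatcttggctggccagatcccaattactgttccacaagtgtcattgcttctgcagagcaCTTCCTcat
Gp9, chr6:87777820-87778069, plus strand: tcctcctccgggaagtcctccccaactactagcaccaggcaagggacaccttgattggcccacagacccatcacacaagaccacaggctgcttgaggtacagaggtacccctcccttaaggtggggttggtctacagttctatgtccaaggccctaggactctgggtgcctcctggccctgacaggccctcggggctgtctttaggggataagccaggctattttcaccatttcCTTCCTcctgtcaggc
Gp5, chr16:30310782-30311031, minus strand: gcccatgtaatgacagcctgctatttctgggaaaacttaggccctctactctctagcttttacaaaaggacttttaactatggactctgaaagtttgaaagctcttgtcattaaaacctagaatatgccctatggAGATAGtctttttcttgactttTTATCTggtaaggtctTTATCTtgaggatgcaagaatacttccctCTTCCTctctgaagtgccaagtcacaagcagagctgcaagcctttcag
Clec1b, chr6:129397047-129397296, plus strand: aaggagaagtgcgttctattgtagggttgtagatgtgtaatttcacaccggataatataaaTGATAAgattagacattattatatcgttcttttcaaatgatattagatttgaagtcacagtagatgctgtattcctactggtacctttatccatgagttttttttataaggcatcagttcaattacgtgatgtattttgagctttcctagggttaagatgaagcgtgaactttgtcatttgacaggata
The Pf4 window held 1 ETS match, beginning 9 bases before the start, and the Gp9 window held 1 ETS match 16 bases before it. The Gp5 window held 3 GATA matches and 1 ETS match, and the Clec1b window held 1 GATA match. Of 15 genes of the lineage looked for, 11 had an entry, and 7 had a window free of annotated exons. Of these, 2 held a GATA match and 4 an ETS match, beside 26.5% and 39.2% of 32851 annotated promoters of the same length. A match describes the letters only.

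The rule fixed the levels of Pf4 and Itga2b, which are therefore given as a description. The Pf4 UMIs per cell ranged from 2 to 620 with a median of 30.5 in TLR9-/- 1, from 2 to 1293 with a median of 25 in TLR9-/- 2, from 2 to 447 with a median of 9 in WT 1 and from 2 to 203 with a median of 38 in WT 2. All 4 libraries thus spanned cells at the threshold and cells filled with Pf4 transcripts. Just inside the threshold stood 13 cells with exactly 2 Pf4 UMIs, and 64 cells had at least 10. Just outside it stood 32 cells with Itga2b and 1 Pf4 UMI, and 153 cells with at least 2 Pf4 UMIs and no Itga2b UMI, of which 18 had at least 10 Pf4 UMIs. A further 6 cells passed for Pf4 and Itga2b but exceeded the limit for the basophil genes. Cells of this rule held a median of 7746 and 11296 UMIs in TLR9-/- 1 and 2 and of 3933 and 6317 UMIs in WT 1 and 2. Over all kept cells the medians were 2545 and 3618 UMIs in TLR9-/- 1 and 2 and 1759 and 2287 in WT 1 and 2, with TLR9-/- 1 close to WT 2, and a rule on raw UMIs takes in more cells where cells are deeper.

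The label of megakaryocyte progenitors was checked with genes that the rule did not use. Cd9, a tetraspanin abundant on platelets and their precursors, had a UMI in 88.8% of the 98 cells and Gp1bb, the beta chain of the von Willebrand factor receptor, in 52.0%. In B cells, which should lack Gp1bb and of which some kinds are known to carry Cd9, the shares were 9.77% for Cd9 and 0.0465% for Gp1bb, at a median depth of 1604 UMIs against 8050 UMIs in the Pf4+Itga2b+ cells. After reduction of every cell to 1000 UMIs, which 91 of the 98 cells could provide, the shares were 50.5% and 16.5% in Pf4+Itga2b+ cells and 4.42% and 0.0253% in B cells. Both markers therefore stood above the B cell level at equal depth. Kit, the stem cell factor receptor of progenitors, had a UMI in 24.5% of the cells and in 1.69% of B cells. At 1000 UMIs the shares were 3.30% and 0.346%. By library, the share in Pf4+Itga2b+ cells at 1000 UMIs was 5.26% and 3.70% in TLR9-/- 1 and 2 and 0% in WT 1 and WT 2. Tlr9 had 0 UMIs in these cells in every library, so that the disruption could not be read in them. Summed over all kept cells, Tlr9 reached 41 UMIs in TLR9-/- 1, 48 in TLR9-/- 2, 120 in WT 1 and 97 in WT 2.

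Clustering of the 98 cells by their own variable genes gave 5 clusters, which describe how the cells differ and are not compared by test. Cluster 1, with 25 cells, was led by Pf4, Treml1, a receptor of the alpha granule membrane, Cavin2 and Rab27b, a granule transport GTPase, and had 19626 CPM (the UMIs of a gene scaled to a total of 1000000 UMIs in the cells concerned) of Pf4 at a median of 14200 UMIs per cell. Gata2 was found in 15 of its 25 cells. Cluster 3, with 21 cells, held 3927 CPM of Pf4 and had the stem cell gene Ifitm1 in 16 cells, against 7 of the 25 cells of cluster 1. Cluster 4, with 18 cells, had 4890 CPM of Pf4, and a median of 3786.5 UMIs per cell. Meis1, a homeobox factor of stem cells and early megakaryocytes, was found in 14, 12 and 6 cells of clusters 1, 3 and 4, and in 2 cells each of clusters 2 and 5. Kit was found in 10, 8 and 4 cells of clusters 1, 3 and 4, and in 2 and 0 cells of clusters 2 and 5.

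The other two clusters carried genes that the progenitor label does not cover. Cluster 5 consisted of 10 cells with 23926 CPM of Pf4, 12038 CPM of Ppbp (pro-platelet basic protein, a chemokine of the alpha granule), 7935 CPM of Clec1b, 7680 CPM of Thbs1 (thrombospondin 1) and 1999 CPM of Tubb1, the beta tubulin of platelets. Ribosomal protein genes made up a median of 2.57% of the UMIs in these cells, against medians of 24.4% to 37.5% in the other clusters. Kit, Mki67 and Top2a had no UMI in any of the 10 cells, at a median of 2928.5 UMIs per cell. Gata2, named above for cluster 1, had a UMI in 5 of the 10 cells, at 225 CPM against 66.8 CPM in cluster 1. The cells of cluster 5 thus carried transcripts of the late lineage without Kit, Mki67 and Top2a, but some of them with Gata2. Cluster 2 consisted of 24 cells with 2347 CPM of Pf4. Its leading genes against the other kept cells were of the lineage, beginning with Pf4, Ppbp, Clec1b and Itga2b, and Ppbp and Clec1b were each found in 14 of its cells. The same cells had the monocyte gene Ly6c2 in 19, the myeloid adaptor gene Tyrobp in 23 and Irf8, a factor of monocytes and dendritic cells, in 20 of 24 cells. Lyz2, the lysozyme of myeloid cells, reached 6770 CPM there against 144 CPM in cluster 1. Because of these clusters, the whole set is called Pf4+Itga2b+ cells below. In the order of clusters 1 to 5, TLR9-/- 1 gave 13, 3, 9, 12 and 3 cells, TLR9-/- 2 gave 10, 9, 4, 4 and 2, WT 1 gave 0, 10, 4, 0 and 3 and WT 2 gave 2, 2, 4, 2 and 2. WT 1 thus had most of its cells in cluster 2 and none in clusters 1 and 4, and the part of this in the comparisons of the genotypes was not tested.

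**Figure D1:**
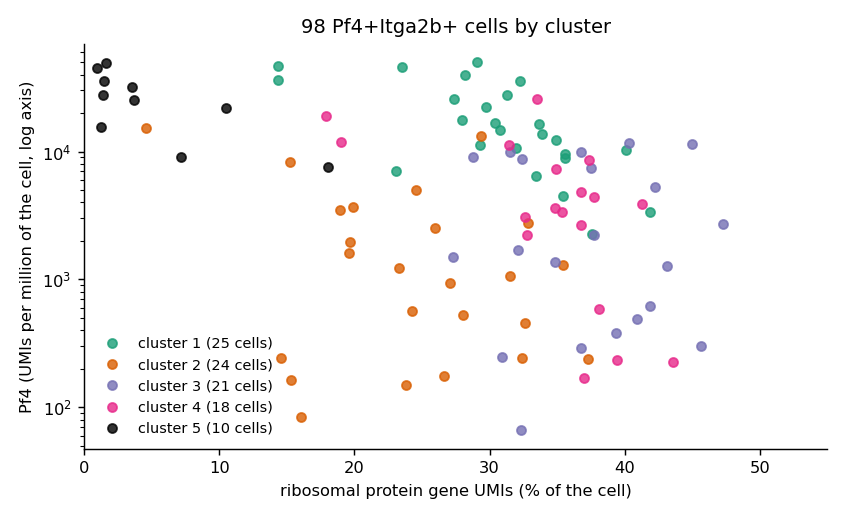
CPM of Pf4 in the cell (vertical, log axis) against the percentage of UMIs on ribosomal protein genes (horizontal) for each of the 98 Pf4+Itga2b+ cells, coloured by cluster. Most cells of cluster 5 lie at few ribosomal UMIs (median 2.57%) and much Pf4, and clusters 2, 3 and 4 reach down to the lowest Pf4 levels.

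Some cells also carried transcripts of other lineages in bulk. In 5 of the 98 cells, 37 genes of B cells, neutrophils, monocytes, macrophages, T and NK cells, dendritic and plasma cells and red cells (globins) together took more than 5% of the UMIs. Of these, 1 came from TLR9-/- 1, with 26.1% of its UMIs on these genes, and 4 from TLR9-/- 2, with 5.35%, 6.86%, 8.96% and 33.0%. No cell of WT 1 or WT 2 exceeded 5% on these 37 genes, which left out some genes of these lineages, among them Lyz2, Mpo and Prtn3. In the Pf4+Itga2b+ cells of WT 1 the 37 genes summed to 5735 CPM, while the whole neutrophil and monocyte lists stood at 7489 and 6513 CPM. WT cells under 5% were thus not free of such transcripts. Neutrophil genes were the bulk of the UMIs on the 37 genes in 4 of the 5 cells over 5% and globin genes in the other. Scrublet, a program that marks likely doublets, marked 3 of the 98 cells, all from TLR9-/- 2 and 2 of them among these 5. For WT 2 its threshold marked 0.0112% of the kept cells, and the 7.44% with the highest scores were taken instead. In all, 863 cell barcodes occurred in more than 1 library. TLR9-/- 1 and WT 1 shared 203, against the 166.8 that independent draws from the set of possible barcodes would give. WT 1 and WT 2 shared 154 against 138.5, and the other pairs of libraries 118 to 141 against 114.4 to 138.2. Without such cells 39, 25, 14 and 11 Pf4+Itga2b+ cells remained in TLR9-/- 1, TLR9-/- 2, WT 1 and WT 2.

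**Figure D2:**
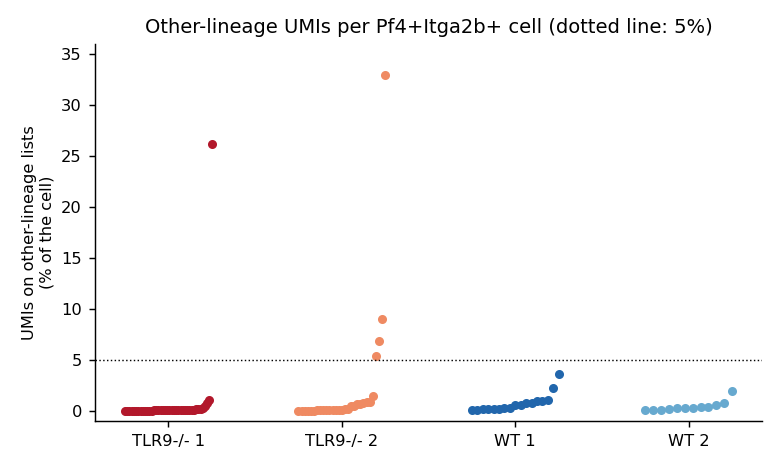
Percentage of the UMIs of each Pf4+Itga2b+ cell that fell on the 37 genes of other lineages described above (vertical), with 1 point per cell and the libraries side by side. The dotted line marks 5%, which 1 cell of TLR9-/- 1 and 4 cells of TLR9-/- 2 exceeded.

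To see which genes set the Pf4+Itga2b+ cells apart from stem cells, their UMIs were summed per library and compared with those of 311 stem cell-like cells from the same libraries, defined by at least 1 UMI each of Hlf and Ifitm1. By edgeR's quasi-likelihood test with the library as a block, 289 of 4411 genes were higher in the Pf4+Itga2b+ cells at an adjusted p below 0.05, a background of 6.55%, and 208 were lower, a background of 4.72%. The genes that chose either class were left untested, but genes that go with them in the same cells are not independent of the choice. Clec1b, with the smallest p among the higher genes that were abundant in the Pf4+Itga2b+ cells, stood at 679, 397, 1411 and 362 CPM in TLR9-/- 1, TLR9-/- 2, WT 1 and WT 2. The 10 cells of cluster 5 held 528 of its 617 UMIs, and the 311 stem cell-like cells held 1 UMI of it. The filter on low counts kept genes that reached 26.9 CPM in at least 4 of the 8 sums, which Clec1b did through the Pf4+Itga2b+ cells alone, so that it had to differ if it was tested at all and its values are a description. Vwf, the adhesive protein that tethers platelets, stood at 201, 218, 335 and 209 CPM, and again had 1 UMI in the stem cell-like cells. Its 4 libraries differed by less than 1 log2 unit from each other.

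By role, the surface receptors of platelets come first. Of 18 listed receptor genes, 9 passed the filter on low counts, and 8 of these were higher in Pf4+Itga2b+ cells. Several of them were near 0 in the stem cell-like cells and, like Clec1b and Vwf, passed the filter only through the cells where they were high, so that the counts of this and the following lists are a description and no support. The exception was Cd63, a tetraspanin of dense granules and lysosomes, which was lower (log2 difference −1.15, edgeR adjusted p = 0.00819). Cd9, which reached the filter's level in every library of both classes, rose from 95.2 CPM to 2387 ± 1579 CPM (SD, n = 4 libraries). Gp1bb stood at 248 ± 286 CPM, with 1 UMI in the stem cell-like cells, and Itgb3, the beta chain that pairs with Itga2b, at 359 ± 154 against 5.50 CPM. Of 13 listed cargo genes of the alpha granule, 10 were tested and 8 were higher. Ppbp stood at 318, 305, 6033 and 626 CPM against 2.72 CPM in the stem cell-like cells, and WT 1 lay far above the other libraries. A single cell of cluster 5 held 78.3% of the Ppbp UMIs of WT 1, and without it the level in WT 1 was 1563 CPM. The same cell held 81.6% of the Cd9, 73.0% of the Gp1bb and 81.4% of the Clec1b UMIs of the Pf4+Itga2b+ cells of WT 1, with 16.1% of all their UMIs. Of 16 genes of the proplatelet skeleton and its signals, 15 were tested and 14 were higher. They included Rap1b, a GTPase of integrin activation, at 1047, 678, 651 and 538 CPM against 75.8 CPM (log2 difference 3.26, standard error 0.18, edgeR adjusted p = 1.85e-06), and Myl9, a myosin light chain. Tmsb4x, the actin-binding thymosin beta 4, rose from 2740 CPM to 12315 ± 2138 CPM.

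Among 16 listed transcription factors of the lineage, 13 were tested, 7 were higher and 1 was lower. Gata1 stood at 5.59 CPM in the stem cell-like cells and at 177, 99.8, 208 and 76.9 CPM in Pf4+Itga2b+ cells (log2 difference 4.32, standard error 0.41), and every library lay above the stem cell-like mean, where it stayed under the filter's level. Among the others, Fli1, Nfe2, Tal1, Zfpm1 and Mef2c passed as higher, whereas Lyl1 was lower. Gata2, Runx1 and Meis1 missed the threshold, with log2 differences of 0.67, 0.48 and 0.36 (standard errors 0.27, 0.20 and 0.32). Kit was lower (log2 difference −1.88, standard error 0.24), with 31 UMIs in Pf4+Itga2b+ cells.

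Of 12 listed stem cell genes 5 were tested, of which Ly6a, Cd34 and Hoxa9 were lower in Pf4+Itga2b+ cells and 2 had positive differences. Cd34, the sialomucin of progenitors, stood at 14.9, 23.0, 54.3 and 22 CPM against 220 CPM (log2 difference −3.11, standard error 0.29), or 23 UMIs in all. Each library lay below the stem cell-like mean, and 1 of the 4 reached the filter's level, so that Cd34 passed it through the stem cell-like cells. Cd27 (log2 difference −2.88) likewise passed it through them, with 13 UMIs in Pf4+Itga2b+ cells. Sox4 and Myb, the latter a factor that holds progenitors in the dividing state, reached the filter's level in every library of both classes and were lower by −2.16 and −1.75 on the log2 scale. H2afy, a histone variant gene, had the smallest p among the lower genes that were abundant in the stem cell-like cells (−1.69, standard error 0.16, edgeR adjusted p = 6.24e-05). The stem cell-like cells also held basophil transcripts, with 838 ± 850 CPM of Prss34, whereas the rule capped Mcpt8 and Prss34 in the Pf4+Itga2b+ cells. The 3 tested basophil genes Cpa3, Hdc and Ccl3 were lower in Pf4+Itga2b+ cells, which that cap can set. Of the cell cycle lists, 0 of 25 tested S phase genes passed at an adjusted p in edgeR, with 0 at an unadjusted p below 0.05, and 1 of 27 tested G2/M genes, Ckap2l, was higher.

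**Figure D3:**
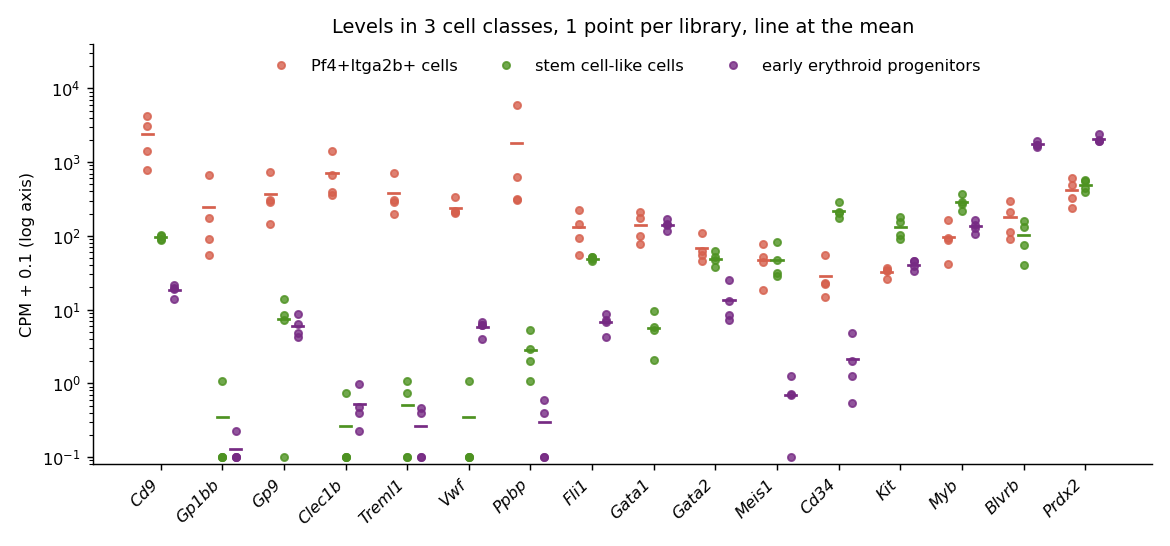
Level of 16 genes (CPM plus 0.1, log axis) in Pf4+Itga2b+ cells, stem cell-like cells and early erythroid progenitors, with 1 point per library and a line at the mean of 4. Receptor and granule genes from Cd9 to Ppbp are highest in Pf4+Itga2b+ cells in all 4 libraries, Gata1 has near-equal means in Pf4+Itga2b+ cells and erythroid progenitors (140 and 142 CPM), and Cd34, Kit and Myb are highest in stem cell-like cells.

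The second comparison was with the erythroid lineage, which shares progenitors with megakaryocytes. It used 1199 early erythroid progenitors, defined by at least 2 UMIs of Car1, at least 1 of Klf1 and under 5% of globin UMIs. Their median depth was 15819 UMIs. Of 8131 genes tested, 2661 differed, a background of 32.7%. Of these, 1387 were higher in Pf4+Itga2b+ cells, a background of 17.1%, and 1274 were lower, a background of 15.7%. This balance turned with the processing, to 1205 higher and 1301 lower without the 5 cells over 5% and to 1578 higher and 2013 lower with no filter on low counts. Of 18 listed receptor genes 15 were tested and higher, of 13 alpha granule genes 11 were tested and higher, and of 16 skeleton genes 15 were higher. Genes that one class nearly lacked, here and among the erythroid genes, entered the test only through the other class, so that these counts are again a description. Itgb3 stood at 1.10 CPM in the erythroid cells and at 359 ± 154 CPM in Pf4+Itga2b+ cells (SD, n = 4 libraries, log2 difference 7.91, standard error 0.34), and like Plek (pleckstrin, 7.03) it passed the filter only through the latter. Nrgn and Rgs18, a regulator of G protein signals in platelets, reached the filter's level in both classes and were higher by 5.86 and 5.02.

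Of the transcription factors, Gata1 and Gfi1b missed the threshold against erythroid progenitors. Gata1 stood at 140 ± 62.1 CPM in Pf4+Itga2b+ cells and 142 ± 20.5 CPM in erythroid progenitors (log2 difference −0.15, standard error 0.22, edgeR adjusted p = 0.639), and Gfi1b at 56.4 ± 37.0 and 88.8 ± 21.2 CPM (−0.58, standard error 0.24, edgeR adjusted p = 0.0736). Fli1, Meis1, Mef2c, Gata2, Runx1, Nfe2 and Etv6 were among those higher in Pf4+Itga2b+ cells, for example Meis1 (6.13, standard error 0.45), which had 13 UMIs in the erythroid cells and passed the filter through the Pf4+Itga2b+ cells. All 8 tested erythroid genes were lower, among them Epor, the erythropoietin receptor (−1.99), Tfrc, the transferrin receptor (−2.48), and Car2, a carbonic anhydrase (−3.41). Among genes abundant in the erythroid progenitors, those with the smallest p in this direction were C1qtnf12, Blvrb, a biliverdin reductase of red cells, and Mgst3, lower by −4.44, −3.48 and −3.69.

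Division genes were also lower than in erythroid progenitors. Of 28 S phase genes 15 were lower and 1 higher, and of 35 G2/M genes 21 were lower and 1 higher, with medians of −0.76 and −0.89. All 6 tested heat shock genes were lower, with a median of −0.88, for example Hspa8, a constitutive chaperone, at 844 against 1402 CPM. All 12 tested immediate early genes, such as Fos and Klf6, were higher, with a median of 2.27. Of the genes of other lineages, 6 of 7 tested B cell genes, 5 of 5 monocyte genes and 5 of 5 dendritic and plasma cell genes were higher too. So was 1 of 1 T and NK cell genes, beside 17.1% of all genes. Of 10 neutrophil genes 1 was higher, no more than that background, and 2 had positive differences, with a median of −0.60. Of 3 macrophage genes 1 was lower. The summed level of the monocyte list was 865, 3982, 6513 and 3162 CPM in TLR9-/- 1, TLR9-/- 2, WT 1 and WT 2, with Lyz2 as its most abundant gene. Their part in the comparisons was not tested.

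The first question on genotype was whether Pf4+Itga2b+ cells were more frequent in TLR9-/- marrow. They made up 0.371% (exact binomial 95% interval 0.265 to 0.505) and 0.325% (0.218 to 0.467) of the kept cells in TLR9-/- 1 and 2, and 0.161% (0.0937 to 0.257) and 0.135% (0.0697 to 0.236) in WT 1 and 2. Both TLR9-/- libraries lay above both WT libraries, and the mean share was 2.35-fold higher, at 0.348% ± 0.0324 against 0.148% ± 0.0183 (SD, n = 2 libraries). The exact two-sided permutation test gave p = 0.33, the smallest value that 2 libraries against 2 allow, so that the difference cannot pass a threshold of 0.05. Between libraries of the same number the ratio was 2.31 and 2.41. The intervals cover counting error only. With the cells of clusters 2 and 5 left out, a choice made after seeing the data and given without a test, 34, 18, 4 and 8 cells remained, or 0.315% and 0.202% against 0.0378% and 0.0899%, a ratio of 4.05. Between libraries of the same number this ratio was 8.34 and 2.24, the former against the 4 cells of WT 1.

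The share moved with depth. When cells under 1000 UMIs were left out, 6232 in all, and the others reduced to 1000 UMIs, the rule took 11 cells from TLR9-/- 1, 10 from TLR9-/- 2, 6 from WT 1 and 5 from WT 2, of 8884, 8452, 7860 and 7739 cells, or 0.124% and 0.118% against 0.0763% and 0.0646%, and the ratio fell to 1.72. At 2000 UMIs, with 16988 shallower cells left out, the shares were 0.330% and 0.143% against 0.193% and 0.104%. Here WT 1 lay above TLR9-/- 2, the groups overlapped, and the ratio was 1.60 (exact permutation p = 0.67). Leaving out the cells under 2000 UMIs without reducing the others gave a ratio of 1.98. Counted on raw UMIs too, the stem cell-like cells had 1.08% and 1.20% against 0.322% and 0.607%, a ratio of 2.45, the basophil-type cells a ratio of 1.70 and the early erythroid progenitors a ratio of 1.07. Whether the ratio of the Pf4+Itga2b+ cells differed from these was not tested. Per 100 stem cell-like cells there were 34.5, 27.1, 50.0 and 22.2 Pf4+Itga2b+ cells in TLR9-/- 1, TLR9-/- 2, WT 1 and WT 2, with overlap of the genotypes.

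**Figure D4:**
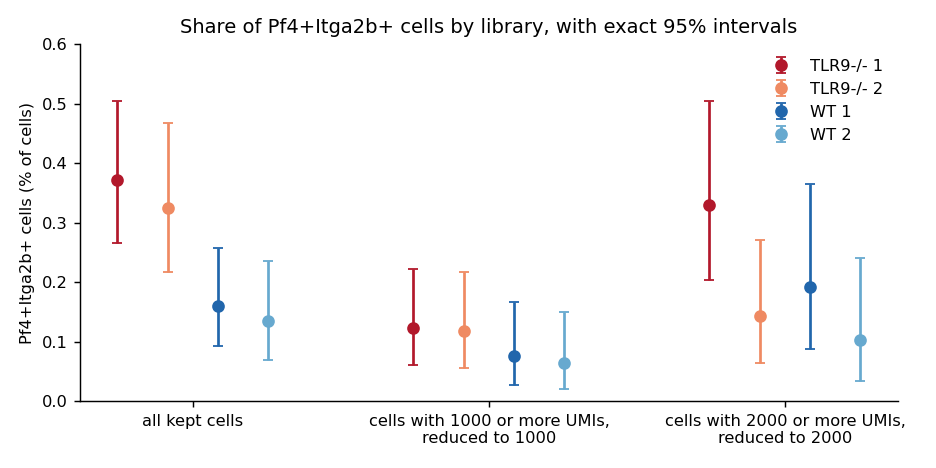
Pf4+Itga2b+ cells as a percentage of all kept cells in each library, and as a percentage of the cells with at least 1000 or 2000 UMIs after each was reduced to that number, with exact binomial 95% intervals. Among all kept cells, both TLR9-/- libraries (0.371% and 0.325%) lie above both WT libraries (0.161% and 0.135%), whereas at 2000 UMIs WT 1 (0.193%) lies above TLR9-/- 2 (0.143%).

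The UMIs of the Pf4+Itga2b+ cells, 402135 and 390722 in the TLR9-/- and 110556 and 91069 in the WT libraries, were then compared between the genotypes. Only 3 of 3430 genes passed an adjusted p of 0.05 in edgeR, all higher in TLR9-/- cells, a background of 0.0875%. At an unadjusted p below 0.05 stood 186 genes. In bulk sums of this kind, more cells with a transcript and more transcript per cell cannot be told apart. The 3 genes code antimicrobial and calcium-binding proteins of neutrophils, and on GRCm38 they were Camp (ENSMUSG00000038357, chr9:109847379-109849617, minus strand), S100a8 (ENSMUSG00000056054, chr3:90668978-90670035, plus strand) and S100a9 (ENSMUSG00000056071, chr3:90692632-90695721, minus strand). Camp stood at 3213 and 6716 CPM in TLR9-/- 1 and 2 and at 18.1 and 22 CPM in WT 1 and 2 (log2 fold difference 7.89, standard error 0.63, edgeR adjusted p = 0.0358). With 2 UMIs in each WT library it passed the filter on low counts, here 39.9 CPM, through the TLR9-/- cells alone and had to differ. S100a8 stood at 5682 and 10074 against 127 and 231 CPM, and S100a9 at 5680 and 14135 against 118 and 121 CPM (log2 fold differences 5.43 and 6.34, edgeR adjusted p = 0.0358 for both).

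These UMIs lay in few cells. Of the Camp UMIs of the TLR9-/- cells, 99.9% were in the 5 cells with over 5% of UMIs from other lineages, and of the S100a8 and S100a9 UMIs 98.8% and 99.4%. The genes that marked these 5 cells include Camp, S100a8, S100a9 and Ngp themselves, so leaving the cells out removes these UMIs by construction and says only where they lay. Without those cells Camp stood at 5.29 and 9.86 against 18.1 and 22 CPM and S100a8 at 169 and 39.4 against 127 and 231 CPM, and 0 of 2926 genes passed in edgeR, with 182 at an unadjusted p below 0.05. Ngp, another neutrophil granule gene, followed the same course, at 930 and 2989 CPM against 18.1 and 22 CPM with 99.8% of the TLR9-/- UMIs in these cells. It missed the threshold (edgeR adjusted p = 0.116) but passed with the replicate block and without Scrublet-marked cells (edgeR adjusted p = 0.0073 and 0.0119). In DESeq2 it passed too (DESeq2 adjusted p = 1.85e-08). Ngp reached the filter's level through TLR9-/- cells alone, so that no support is taken from these p-values. The neutrophil list as a whole stood at 16808, 36970, 7489 and 824 CPM in TLR9-/- 1, TLR9-/- 2, WT 1 and WT 2, with all 10 genes detected and S100a9 the most abundant.

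Npy, neuropeptide Y, a peptide transmitter known also from rodent megakaryocytes, was found among the 98 cells in those of TLR9-/- mice alone. The gene lies at chr6:49822710-49829507 on the plus strand of GRCm38. It had 245 and 157 UMIs in the Pf4+Itga2b+ cells of TLR9-/- 1 and 2, from 7 and 11 cells, and 0 UMIs in those of WT 1 and WT 2. Set against the 3 UMIs that a count of 0 allows over both WT libraries, the level in TLR9-/- cells was at least 34.1-fold higher and missed the threshold (edgeR adjusted p = 0.0882, and 1.02e-15 to 0.297 in the alternatives). Npy passed the filter through TLR9-/- cells alone and single cells held 51.0% and 54.1% of its UMIs in TLR9-/- 1 and 2, so that no support is taken from these p-values. Cluster 5 held most of it: all 5 of its TLR9-/- cells had Npy, with 233 UMIs in 3 cells and 93 UMIs in 2 cells, and all 5 of its WT cells had none. Among kept cells that were not Pf4+Itga2b+ cells, Npy counted 60 UMIs in TLR9-/- 1, 85 in TLR9-/- 2, 1 in WT 1 and 0 in WT 2, so the contrast was not confined to these 98 cells.

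Of genes lower in TLR9-/- cells none passed in edgeR, whereas 4 of the 9 calls in DESeq2 were lower, among them Tpm2, Cald1 and Ly6g6f (DESeq2 adjusted p = 0.00676, 0.0289 and 0.0459). The 5 with the smallest unadjusted p that were lower in both same-numbered pairs were Ly6g6f, Cald1 (caldesmon), Uba7, Tpm2 (tropomyosin 2) and Sema4d. All but Uba7 had every TLR9-/- library under the filter's level and passed it through the WT cells alone. No support is taken from the p-values of Ly6g6f, Cald1, Tpm2 and Sema4d, in edgeR or in DESeq2. Ly6g6f, a receptor of the megakaryocyte and platelet surface, stood at 19.9 and 12.8 CPM against 190 and 98.8 CPM (log2 fold difference −3.17, standard error 0.50, edgeR adjusted p = 0.357). Tpm2 stood at 17.4 and 17.9 against 543 and 65.9 CPM (edgeR adjusted p = 0.81). The single WT 1 cell named above held 81.0% of the Ly6g6f, 74.4% of the Cald1 and 88.3% of the Tpm2 UMIs of its library, and without it WT 1 had 43.1, 119 and 75.4 CPM of them. Sema4d, a semaphorin, stood at 29.8 and 25.6 against 81.4 and 121 CPM (edgeR adjusted p = 0.81). Uba7, the activating enzyme for the ubiquitin-like protein Isg15, stood at 82.1 and 66.5 against 244 and 198 CPM (−1.61, standard error 0.34, edgeR adjusted p = 0.81).

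The gene lists of the lineage gave no call between the genotypes. Of 13 tested platelet receptor genes, 12 had a negative log2 difference and 1, Cd63, a positive one of 1.40, with a median of −0.71, beside −0.02 over all genes, and 2 were at an unadjusted p below 0.05. The monocyte list had the same sign, with 5 of 5 tested genes negative, a median of −1.23 and 0 at an unadjusted p below 0.05. Summed, the receptor list stood at 6035 and 4090 CPM in TLR9-/- 1 and 2 against 10483 and 3371 CPM in WT 1 and 2. The genotypes overlapped, with WT 1 highest and WT 2 lowest, so that the signs of the receptor genes are a description. The single WT 1 cell named above held 81.6% of the Cd9 and 73.0% of the Gp1bb UMIs of its library. Cd9 stood at 3049, 1431, 4278 and 791 CPM in TLR9-/- 1, TLR9-/- 2, WT 1 and WT 2 and Gp1bb at 177, 89.6, 669 and 54.9 CPM, so that WT 1 was highest and WT 2 lowest for both and the genotypes overlapped. Without clusters 2 and 5 Cd9 stood at 1209 and 1356 against 439 and 748 CPM and Gp1bb at 133 and 94.6 against 220 and 55.4 CPM, so that the genotypes no longer overlapped for Cd9, with 4 and 8 cells left in WT 1 and WT 2. The alpha granule and skeleton lists had medians of −0.42 over 11 and −0.57 over 16 tested genes, and 0 genes passed in edgeR, with 1 at an unadjusted p below 0.05 in each. Summed, the alpha granule list stood at 14187, 16185, 19203 and 9531 CPM and the skeleton list at 4016, 4420, 7969 and 3053 CPM in TLR9-/- 1, TLR9-/- 2, WT 1 and WT 2. For both lists WT 1 was highest and WT 2 lowest, and the single WT 1 cell named above held 83.4% of the Thbs1 and 86.8% of the Myl9 UMIs of its library. The transcription factors had a median of 0.51 over 14 genes, 12 of them positive and 1 at an unadjusted p below 0.05, in cells that lay in different clusters in each library, as given above. Their sum was 2738 and 1769 CPM in TLR9-/- 1 and 2 against 1502 and 1834 CPM in WT 1 and 2, so that the genotypes overlapped. Gfi1b and Meis1, both positive, reached the filter's level in 0 and 1 WT libraries and passed it through the TLR9-/- cells. The tally of signs is therefore a description. Gfi1b, a repressor required in the megakaryocyte and erythroid lineages, stood at 84.5 and 92.1 CPM against 27.1 and 22 CPM (1.77, standard error 0.47, edgeR adjusted p = 0.81), with 34, 36, 3 and 2 UMIs. Gfi1b passed the filter on low counts through the TLR9-/- cells alone and had to differ, so that its values are a description. The WT values rest on 5 UMIs. Fos, an immediate early factor, and the myeloid factors Spi1 and Cebpb had log2 differences of 0.06, −0.07 and −2.04, and none passed (edgeR adjusted p = 0.998, 0.997 and 0.81). The summed immediate early list stood at 1502 and 425 CPM in TLR9-/- 1 and 2 and at 1094 and 461 CPM in WT 1 and 2, higher in both libraries numbered 1 than in both numbered 2.

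**Figure D5:**
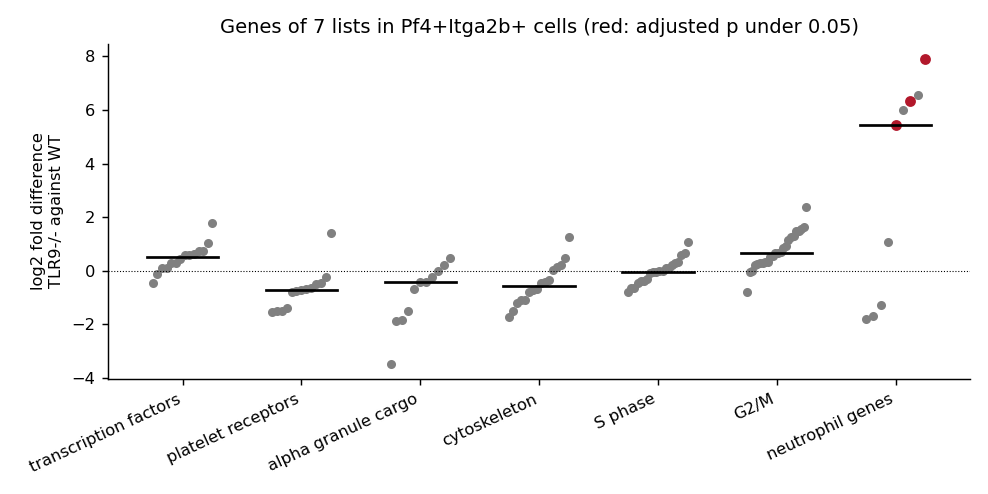
Log2 fold difference between TLR9-/- and WT Pf4+Itga2b+ cells (vertical) for every tested gene of 7 lists, with a line at the median of each list and red points for genes past an adjusted p of 0.05. The transcription factor and G2/M medians (0.51 and 0.66) lie above 0 and the receptor median (−0.71) below it, and the 3 red points are Camp, S100a8 and S100a9.

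The remaining lists concerned division and signals. Of 24 tested G2/M genes, 22 had a positive difference, with a median of 0.66, and 0 passed in edgeR, with 3 at an unadjusted p below 0.05. Ube2c, a ubiquitin-conjugating enzyme of mitosis, stood at 654 and 317 against 54.3 and 132 CPM (log2 difference 2.36, standard error 0.57, edgeR adjusted p = 0.81), while Hmgb2, the most abundant gene of the list, stood at 1596 and 1395 against 1149 and 1735 CPM. The S phase list had a median of −0.03 over 20 genes. Counted per cell at 1000 UMIs, a share of 55.3% and 44.4% of Pf4+Itga2b+ cells in TLR9-/- 1 and 2 and of 28.6% and 58.3% in WT 1 and 2 had at least 3 UMIs on the G2/M list. The highest and the lowest share were both in WT libraries, and the mean difference of 6.40 percentage points was smaller than the spread between them (exact permutation p = 1). Without the cells over 5% other-lineage UMIs the difference was 0.97 percentage points, with TLR9-/- 2 at 34.8%. In the clusters the share with at least 3 G2/M UMIs ran from 65.2% of 23 cells in cluster 1 to 12.5% of 8 cells in cluster 5. The interferon-stimulated list had a median of −0.68 over 5 tested genes and the Toll-like receptor pathway list one of −0.13 over 4, and 0 genes passed in either in edgeR, with 0 at an unadjusted p below 0.05.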

How the data were processed

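Cells of 2 TLR9-/- and 2 WT libraries were read from the gene-by-cell tables that the authors deposited. Their values are raw UMI counts, which per the file headers Cell Ranger 3.0.1 produced, and the submitters' processing notes name mm10, STAR and Seurat 2.3.4. Cells with 200 to 10000 genes and at most 10% mitochondrial UMIs were kept, and 39167 of 40545 cells remained, with 50204578, 63958243, 31210188 and 41384657 UMIs in TLR9-/- 1, TLR9-/- 2, WT 1 and WT 2. The rule, members and gene lists were chosen with earlier results of these data known. Doublets were marked by Scrublet's procedure but kept. UMIs were summed per library and cell class and tested with edgeR 4.0.16 in R 4.3.3 (filterByExpr, TMM, quasi-likelihood F test, Benjamini-Hochberg adjustment over all genes tested), after the fit was tested on simulated data. CPM is the plain share of the summed UMIs, while log2 differences are TMM-scaled. Shares were compared by exact two-sided permutation over libraries (scipy 1.17.1). Clusters come from scanpy 1.11.5 with the Leiden method on 1000 variable genes, 10 principal components and 10 neighbours at resolution 1. Pf4, Itga2b, Mcpt8 and Prss34, and the genes that chose the comparison classes, were not tested. Genes named are the label's markers, the most abundant genes and defining factors of each list, and those with the smallest p in each comparison. Against the other cell classes, only abundant genes, above a set mean CPM in the class where they were higher, were ranked by p. Where fewer than 5 genes passed in a direction, the 5 with the smallest unadjusted p, at least 20 CPM and the same direction in both same-numbered pairs were taken and given as not passing. The WT 1 cell that held most Pf4 was singled out after its values were seen. Nothing states that cells of 1 genotype came from more than the 2 mice, so p-values measure the spread between these libraries. Alternatives were DESeq2 1.42.0, RLE scaling, no filter on low counts, a replicate block, stricter cell rules and leaving out each library. Gene coordinates are GENCODE's for GRCm38, matched by identifier for 30934 of 31053 genes. Some genes of the lists are counted but not reported by name here.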

Additional observations from a re-analysis of the deposited data

How the results depend on the processing

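The higher share of Pf4+Itga2b+ cells in TLR9-/- libraries kept its direction under every alternative run. Its log2 ratio of 1.24 moved to 0.78 and 0.67 with cells reduced to 1000 and 2000 UMIs and shallower ones left out and to 0.99 among cells with at least 2000 UMIs, and without 1 library it was 1.11 to 1.37. Without cells whose barcode occurs in another library, an alternative chosen after seeing the data, it was 1.32, and without the cells of clusters 2 and 5, likewise chosen afterwards, 2.02. The 3 genes called between the genotypes became 9 in DESeq2, 24 with no filter on low counts, 5 without Scrublet-marked cells, 0 without the cells over 5% other-lineage UMIs, 0 with at least 5 Pf4 UMIs, where S100a8 and S100a9 had log2 differences of 5.51 and 6.40 (edgeR adjusted p = 0.669 for both), and 12 to 184 without 1 library, highest without WT 2. Lower genes were 4 of the 9, 10 of the 24 and 140 of the 184. In these last fits the lone library is assumed to vary like the other genotype. With the replicate number as a block 6 genes were called, all higher in TLR9-/- cells. The deviations of the number 1 libraries correlated at −0.00077 over the genes of these cells. Other values went with the number: 11069 and 11108 barcodes in the libraries numbered 1 against 9173 and 9195, 2.11% and 1.82% early erythroid progenitors against 4.45% and 4.29%, and more immediate early transcripts. The study held 2 experiments with 1 mouse of each genotype, and whether the numbers mark them is not given in the sources used here. Against stem cell-like cells 497 genes became 977 with no filter and 220 to 577 without 1 library, lowest without TLR9-/- 2. Against erythroid progenitors 2661 became 3591 with no filter and 1600 to 2476 without 1 library, lowest without TLR9-/- 2. Higher genes were 58.1% of the calls against stem cell-like cells, 68.5% in DESeq2. The G2/M difference ran from −8.48 to 21.3 percentage points without 1 library and was negative only without WT 1. It moved from 6.40 to 0.97 percentage points without the cells over 5% other-lineage UMIs.

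Of the genes named between the genotypes, S100a8 and S100a9 turned to −0.84 and −0.84 without the cells over 5% other-lineage UMIs, Cd9 to 0.13 with the replicate block, and Gata1 and Spi1 to 0.084 and 0.13 with no filter. Without 1 library, Cd9 ran from −0.97 to 1.46, Gp1bb from −2.36 to 1.23, Gata1 from −0.62 to 0.80, Spi1 from −1.36 to 1.54, Lyz2 from −1.82 to 0.22, Fli1 from −0.10 to 1.5, Fos from −1.69 to 2.03 and Tubb1 from −0.072 to 3.84. The causes were not tested. The WT libraries held 17 and 12 Pf4+Itga2b+ cells, and in WT 1 a single cell held most UMIs of several genes, as given above.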
